A study of Mus musculus with 4 samples.

Results

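Transcripts of 7 complement genes were examined in CD4 T cell preparations from the spleens of mice with transfer colitis. They were the genes C1qa, C1qb and C1qc for the chains of C1q, C3 and Cfp for circulating factors, and C3ar1 and C5ar1 for the receptors of the anaphylatoxins. The genes were taken by symbol from the deposited table, which holds 16230 genes, and all 7 were found. 2 libraries were labelled CD4creERafl/fl, from donor T cells with loxP-flanked Esr1 alleles and a Cre recombinase under Cd4 control, which acts in developing T cells. Another 2 libraries were labelled ERafl/fl, from donor T cells with the flanked alleles and no Cre, and serve as controls. In both groups the recipients were Rag-/- mice, colitis followed transfer of sorted naive CD4 T cells, and CD3+CD4+ cells were sorted from the spleen after 8 weeks. The recipients have no T or B lymphocytes but keep their own myeloid cells, whose Esr1 the design does not alter. Age, sex, the Rag gene and any pooling of animals are not given in the sources used here.

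C1q starts the classical pathway of complement. Its 3 chains assemble into a bundle with collagen-like stems and globular heads that bind antibody on a surface, apoptotic cells and other ligands. Unlike most complement proteins, which come mainly from the liver, C1q is made largely by tissue macrophages and dendritic cells, among them those of the spleen. C3 is the protein on which all activation routes converge, properdin (Cfp) stabilises the enzyme that cleaves it in the alternative pathway, and the released C3a and C5a fragments signal through C3ar1 and C5ar1. T cells are not a known major source of C1q.

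Levels are given in FPKM, which divides fragments by transcript length and by sequencing depth, so levels of different genes can be compared. Estimated depth was low, at 501000 and 557500 fragments in libraries 1 and 2 labelled CD4creERafl/fl and 698000 and 665000 in controls 1 and 2. Whether a group's libraries come from different animals is not stated, so p-values measure the spread between these libraries, which may be technical. Esr1, the targeted gene, was listed at 0 and 1.96 FPKM in the libraries labelled CD4creERafl/fl and at 0.23 and 0 FPKM in the controls, so its level does not check the labels. The sorted cell type was checked against its markers. All 16 T cell markers examined were present in every library but lower, without overlap, in the libraries labelled CD4creERafl/fl (median log2 fold change -2.54, against -0.07 over all 12896 tested genes). All 20 macrophage markers were higher without overlap, with a median of 3.64. Over all tested genes 25.7% were lower and 23.2% higher without overlap.

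The 3 C1q genes are neighbours on mouse chromosome 4, all on the minus strand, and they are shown with their upstream sequence because their transcripts varied together. Cfp, whose measured profile lay nearest to theirs, and C3, whose measured profile lay far from it, are shown beside them. In GRCm38 coordinates C1qb (NCBI gene 12260) spans 136880126 to 136886200, C1qc (12262) 136889801 to 136892936 and C1qa (12259) 136895916 to 136898844. No other annotated gene lies between them, and the whole cluster covers 18719 bases. C3 (12266) lies on chromosome 17, 57203967 to 57228136, and Cfp (18636) on chromosome X, 20925454 to 20931555. C3ar1 (12267) lies on chromosome 6, 122847140 to 122856157, and C5ar1 (12273) on chromosome 7, 16246743 to 16259540. In the GENCODE annotation none of the 7 shares an exon with another gene, and none has a stretch of 100 bases or more at 95% identity in the transcripts of another gene. RefSeq upstream sequence (GRCm38.p6) was matched for 6 of the 7, all but C1qa. The 250 bases before the transcription start of C1qb (chr4:136886201-136886450, minus strand), C1qc (chr4:136892915-136893164, minus strand), Cfp (chrX:20931556-20931805, minus strand) and C3 (chr17:57228137-57228386, minus strand) read 5′ to 3′ as below, with motif matches in capitals. The end of the C1qc window lies inside the annotated gene span.
C1qb: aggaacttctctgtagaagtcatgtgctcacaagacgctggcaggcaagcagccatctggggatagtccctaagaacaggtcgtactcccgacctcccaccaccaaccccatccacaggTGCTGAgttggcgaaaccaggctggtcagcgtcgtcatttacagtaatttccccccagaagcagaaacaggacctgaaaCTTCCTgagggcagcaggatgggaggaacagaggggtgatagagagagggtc
C1qc: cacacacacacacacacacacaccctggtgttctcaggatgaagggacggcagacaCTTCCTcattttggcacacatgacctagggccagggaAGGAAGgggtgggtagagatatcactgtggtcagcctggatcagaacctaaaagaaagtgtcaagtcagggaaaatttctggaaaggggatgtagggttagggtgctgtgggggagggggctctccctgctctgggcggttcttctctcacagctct
Cfp: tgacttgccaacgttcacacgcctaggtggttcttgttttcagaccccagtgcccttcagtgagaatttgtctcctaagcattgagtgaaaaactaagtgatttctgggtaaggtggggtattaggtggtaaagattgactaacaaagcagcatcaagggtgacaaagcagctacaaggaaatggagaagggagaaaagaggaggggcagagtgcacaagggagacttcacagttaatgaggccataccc
C3: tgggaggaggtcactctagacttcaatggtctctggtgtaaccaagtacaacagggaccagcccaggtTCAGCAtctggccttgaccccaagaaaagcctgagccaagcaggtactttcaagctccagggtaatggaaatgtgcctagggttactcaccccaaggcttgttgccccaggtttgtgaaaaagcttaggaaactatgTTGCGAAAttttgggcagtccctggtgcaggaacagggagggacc
Searched on both strands were AGGAAG, the core bound by PU.1 and other ETS factors of myeloid cells, TGCTGA, the core bound by MAF factors, TTGCNNAA for C/EBP, the interferon-stimulated response element, and TATAAA. No match in the 4 windows shown overlapped another. The AGGAAG motif was found once in C1qb, 47 to 52 bases upstream, and at 2 places in C1qc, 152 to 157 and 189 to 194 bases upstream. Among all 32851 RefSeq promoter windows, 29.48% hold AGGAAG in this stretch. TGCTGA was found once in C1qb (16.08% of all windows) and once in C3, on the opposite strand. C3 alone of these 4 held the C/EBP motif, 38 to 45 bases upstream, which 9.56% of windows hold. None of the 5 motifs was found in the Cfp window, and neither the interferon element (2.98% of all windows) nor TATAAA (12.37%) in any of the 4 shown.

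C1q chain transcripts were abundant in the libraries labelled CD4creERafl/fl and far lower in the controls. C1qa, the A chain, had 349 and 194 FPKM in the libraries labelled CD4creERafl/fl, against 2.70 and 38.2 FPKM in controls 1 and 2. C1qb, the B chain, had 268 and 192 FPKM in the libraries labelled CD4creERafl/fl, against 2.75 and 62.0 FPKM in controls. C1qc, the C chain, had 308 and 237 FPKM in the libraries labelled CD4creERafl/fl, against 1.37 and 37.5 FPKM in controls. For each chain the groups did not overlap, and control 2 was well above control 1. The log2 fold changes on log2(FPKM + 1) were 4.44 ± 1.08 (SE) for C1qa, 3.89 ± 1.25 for C1qb and 4.83 ± 1.24 for C1qc. These ranked 18, 53 and 5 among the 12896 tested genes, ordered from the highest fold change. None passed in limma over all tested genes (adjusted p = 0.173, 0.242 and 0.182). Without control 1 the 3 log2 fold changes were 2.74, 1.86 and 2.82, and without control 2 they were 6.14, 5.93 and 6.84. The control 1 values rest on an estimated 2, 2 and 1 fragments. Their upper counting limits (exact Poisson, 95%) were 9.952, 9.513 and 6.635 FPKM. In control 2 the same chains had about 26, 45 and 30 fragments. Limits and intervals of this kind cover counting error only.

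**Figure D1:**
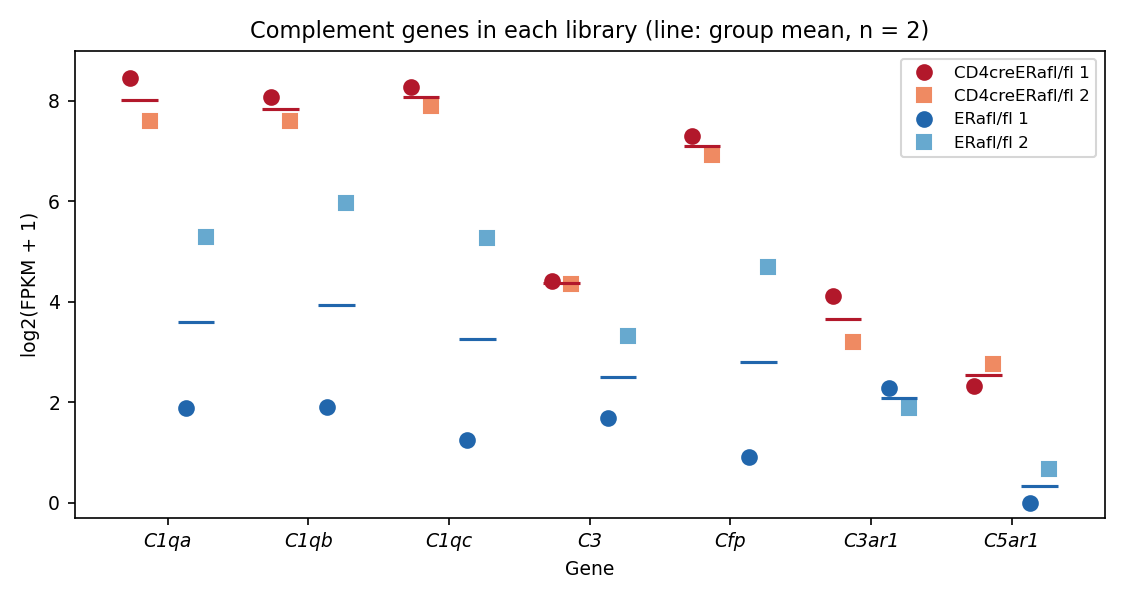
Level of the 7 complement genes, as log2(FPKM + 1), in each of the 4 libraries, with libraries labelled CD4creERafl/fl at left of each gene and controls (ERafl/fl) at right; horizontal lines are group means (n = 2). Both libraries labelled CD4creERafl/fl lie above both controls for all 7 genes, and control 1 lies 3.41 to 4.07 below control 2 for the C1q chains.

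Summed over the 3 chains, C1q had 925 and 623 FPKM in the libraries labelled CD4creERafl/fl, against 6.82 and 138 FPKM in controls. The mean was 774 ± 213 FPKM in the libraries labelled CD4creERafl/fl and 72.2 ± 92.5 FPKM in controls (SD, n = 2 each). The sum was 4.63 higher on the log2 scale in the libraries labelled CD4creERafl/fl, with SDs of 0.40 in these and 3.07 in controls on that scale. An exact permutation test (two-sided) gave p = 0.333, the smallest value that 2 against 2 libraries allow. Without control 1 the difference was 2.46 and without control 2 it was 6.80. Control 1 therefore decides much of its size, and its C1q sum rests on 5 fragments.

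Within the C1q sum, the listed shares of C1qb and C1qc did not overlap between the groups, but those of control 1 rest on very few fragments. C1qa made up 37.8% and 31.1% in the libraries labelled CD4creERafl/fl and 39.6% and 27.8% in controls. C1qb made up 29.0% and 30.9% in the libraries labelled CD4creERafl/fl and 40.3% and 45.1% in controls. C1qc made up 33.3% and 38.0% in the libraries labelled CD4creERafl/fl and 20.1% and 27.2% in controls. The C1qa shares overlapped between the groups, while those of C1qb were lower and those of C1qc higher without overlap in the libraries labelled CD4creERafl/fl. The chain with the highest FPKM was thus C1qa or C1qc in the libraries labelled CD4creERafl/fl and C1qb in both controls, although in control 1 C1qa and C1qb differed by less than 1 fragment. In control 1 the C1qa, C1qb and C1qc shares rest on about 2, 2 and 1 fragments. That is too few to place its C1qb and C1qc shares outside the range of the libraries labelled CD4creERafl/fl. The shares were not tested.

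**Figure D2:**
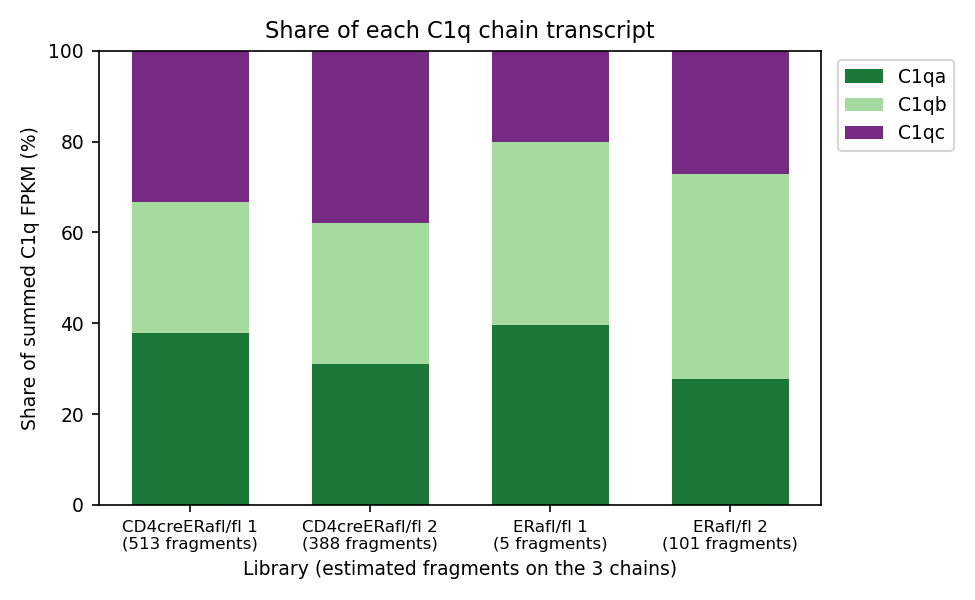
Share of C1qa, C1qb and C1qc in their summed FPKM (stacked bars, in percent) for each library, with the estimated number of fragments on the 3 chains under each bar. C1qb takes 29.0% and 30.9% in the libraries labelled CD4creERafl/fl and 40.3% and 45.1% in controls, where control 1 has 5 fragments.

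Properdin and C3, the circulating factors, differed from each other in level and in fold. Cfp had 156 and 120 FPKM in the libraries labelled CD4creERafl/fl, against 0.88 and 24.96 FPKM in controls. Its log2 fold change was 4.30 ± 1.18 (SE), with an adjusted p of 0.198 in limma, and its value in control 1 is 1 fragment. The fold change of Cfp was 2.41 without control 1 and 6.20 without control 2. C3 had 20.4 and 19.3 FPKM in the libraries labelled CD4creERafl/fl, against 2.21 and 8.98 FPKM in controls. Both genes were higher without overlap, but the log2 fold change of C3 was 1.88 ± 0.61 (SE), and its adjusted p in limma was 0.244. Without control 1 the fold change of C3 was 1.06. Its transcript is 5136 bases long, so these values rest on about 52 and 55 fragments in the libraries labelled CD4creERafl/fl and 8 and 31 in controls. Control 1 thus had more fragments of C3 than of the 3 C1q chains together. The ratio of C1q sum to Cfp was 5.94 and 5.19 in the libraries labelled CD4creERafl/fl and 7.75 and 5.51 in controls. The ratio of C1q sum to C3 was 45.4 and 32.2 in the libraries labelled CD4creERafl/fl and 3.09 and 15.3 in controls. The ratio to Cfp overlapped between the groups, whereas C3 was a smaller part of the C1q level in the libraries labelled CD4creERafl/fl, without overlap.

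Of the anaphylatoxin receptors C3ar1 and C5ar1, only C5ar1 was low in all libraries. C3ar1, the receptor for C3a, had 16.5 and 8.24 FPKM in the libraries labelled CD4creERafl/fl, against 3.88 and 2.72 FPKM in controls. It was the only member higher in control 1 than in control 2, and it differed by 1.58 ± 0.50 (SE) on the log2 scale, with an adjusted p of 0.236 in limma. The groups did not overlap. C5ar1, the receptor for C5a on neutrophils and macrophages, had 4.01 and 5.77 FPKM in the libraries labelled CD4creERafl/fl. In controls it was listed at 0 and had 0.60 FPKM. C5ar1 did not overlap between the groups, and its log2 difference was 2.20 ± 0.59 (SE), for which limma gave an adjusted p of 0.19. On its 2 annotated transcripts (2540 and 2481 bases) that is about 5 and 8 fragments in the libraries labelled CD4creERafl/fl and 0 and 1 in controls. C5ar2, a receptor for the same ligand that does not couple to G proteins, had 34.3 and 39.8 FPKM in the libraries labelled CD4creERafl/fl, against 24.6 and 24.9 FPKM in controls. Its transcripts share up to 168 bases with those of 90 other genes, so that level is uncertain.

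None of the 7 members passed at an adjusted p under 0.05 in limma on log2(FPKM + 1), where 0.0155% of all tested genes were called higher and 0.0388% lower. At an unadjusted p under 0.05 in limma all 7 were higher, against 9.1% of tested genes, and all 7 had higher values without overlap, against 23.2%. C5ar1, with a control mean of 0.3 FPKM, reached the mean of 1 FPKM needed for testing only through the libraries labelled CD4creERafl/fl. That filter fixed a higher mean for C5ar1 in advance. Control 2 lay above control 1 for 6 of the 7, against 50.2% of tested genes. The members' median log2 fold change was 3.89, against -0.07 over all tested genes. With voom weights on recovered fragments, 4 of the 6 members tested rose (C1qa, adjusted p = 0.0185; C1qb, 0.032; C1qc, 0.0173; and Cfp, 0.024, in limma), against 1.97% of genes tested that way, with 0.702% lower. C3 (adjusted p = 0.0703) and C3ar1 (0.135) did not pass in that limma fit, and C5ar1 has 2 transcripts and was not in it. Leaving out 1 library at a time in the voom fit left a group with 1 library, so only the members' fold changes are given. The log2 fold changes of C1qa, C1qb and C1qc were 1.83 to 5.30 except without control 2, where they were 6.11 to 7.24. Without control 1 those of Cfp, C3 and C3ar1 were 2.414, 1.077 and 1.95, and without control 2 they were 6.705, 3.062 and 1.489. A group left with 1 library was assumed there to vary like the other.

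**Figure D3:**
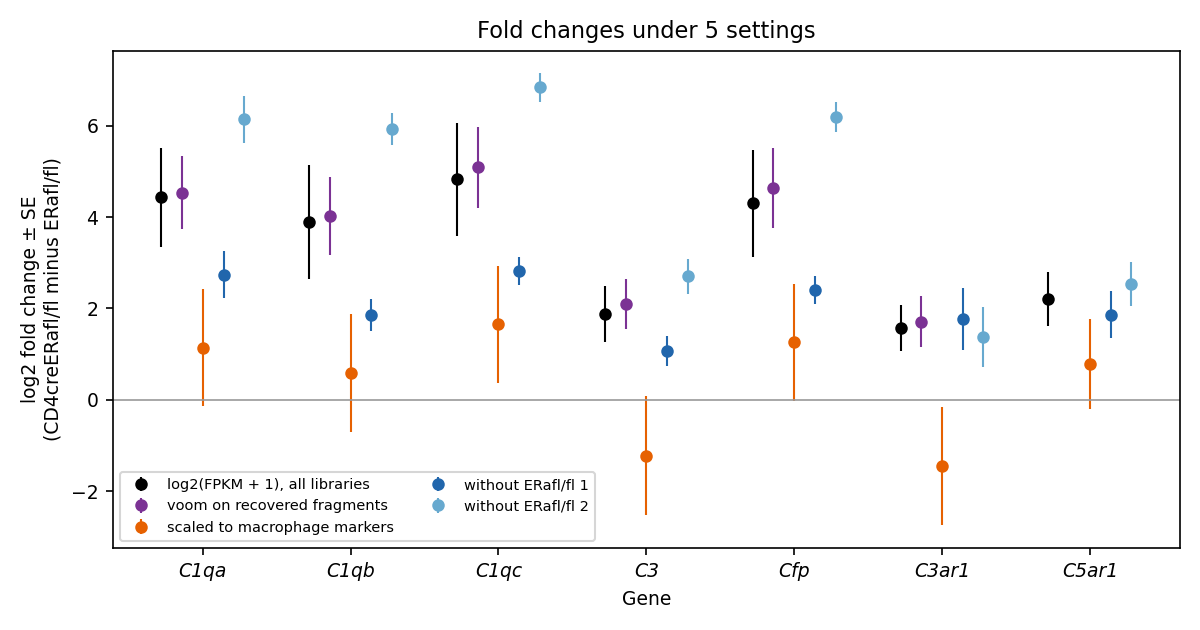
Log2 fold change (libraries labelled CD4creERafl/fl minus ERafl/fl) with SE for each gene, from all libraries on log2(FPKM + 1), with voom weights, after scaling to macrophage markers, and without either control. The values of the C1q chains and Cfp lie above 0 in every setting shown, while C3 and C3ar1 lie at -1.22 and -1.46 after scaling to macrophage markers. After that scaling the SE bars of C1qa, C1qb, Cfp, C3 and C5ar1 cross 0. C5ar1 has no voom value.

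Macrophage markers moved with these genes. The 20 markers summed to 2501 and 3445 FPKM in the libraries labelled CD4creERafl/fl, against 130 and 503 FPKM in controls. None of the 20 was at 0 in the libraries labelled CD4creERafl/fl, while 6 were at 0 in control 1 and 1 in control 2. None passed at an adjusted p under 0.05 in limma, all 20 were higher at an unadjusted p under 0.05 (9.1% of tested genes), and 11 of the 14 tested with voom weights rose (1.97% of genes tested that way). The defining markers Adgre1, Mertk, Cd14, Fcgr1, Marco and Timd4 were the ones listed at 0 in control 1, and Timd4 was the one in control 2. Cd14 and Timd4, with control means of 0.45 and 0 FPKM, passed the filter for testing only through the libraries labelled CD4creERafl/fl. Of the markers with the highest levels, the lysozyme gene Lyz2 had 548 and 1304 FPKM in the libraries labelled CD4creERafl/fl, against 50.7 and 162 FPKM in controls. The heme oxygenase gene Hmox1 had 399 and 453 FPKM in the libraries labelled CD4creERafl/fl, against 7.94 and 41.7 FPKM in controls. The cathepsin gene Ctss had 269 and 378 FPKM in the libraries labelled CD4creERafl/fl, against 30.9 and 91.8 FPKM in controls. All 3 were higher without overlap. Their part in the C1q difference was not tested, and in bulk RNA a larger number of such cells and more RNA per cell cannot be told apart. Of the T cell markers with the highest levels, Cd247 had 102 and 75.9 FPKM in the libraries labelled CD4creERafl/fl and 213 and 237 FPKM in controls. Cd3d had 124 and 70.9 FPKM in the libraries labelled CD4creERafl/fl, against 177 and 146 FPKM in controls. Cd3g had 25.9 and 26.8 FPKM in the libraries labelled CD4creERafl/fl, against 202 and 187 FPKM in controls. These genes encode chains of the T cell receptor complex, and all 3 were lower without overlap. Of the 16 T cell markers none passed at an adjusted p under 0.05 in limma, 15 were lower at an unadjusted p under 0.05 (6.8% of tested genes), and 7 of the 9 tested with voom weights fell (0.702% of genes tested that way).

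Set against the mean of the 20 macrophage markers in the same library, the C1q sum was 7.40 and 3.62 times that mean in the libraries labelled CD4creERafl/fl, and 1.05 and 5.48 times in controls. Control 2 thus lay between the libraries labelled CD4creERafl/fl, and only control 1 stood below them. The counting interval of the C1q fragments (exact Poisson, 95%) was 0.33 to 2.35 for the ratio in control 1 and 4.45 to 6.64 in control 2, leaving out the error of the marker mean. The group difference of this ratio was 1.11 on the log2 scale, smaller than the SD of 1.69 between the controls, and it was -0.08 without control 1, 2.30 without control 2 and 0.59 without library 1 labelled CD4creERafl/fl. Against the median of the markers in place of their mean it was 0.42. The ratio of C1q sum to Csf1r, the macrophage growth factor receptor, was 7.63 and 5.18 in the libraries labelled CD4creERafl/fl and 2.32 and 6.16 in controls. For Cd68, a lysosomal protein of macrophages, it was 5.96 and 4.82 in the libraries labelled CD4creERafl/fl and 2.97 and 6.72 in controls. Both ratios overlapped between the groups.

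For C3 this ratio differed in the other direction. Its level was 0.163 and 0.112 of the macrophage marker mean in the libraries labelled CD4creERafl/fl, against 0.34 and 0.357 in controls, lower without overlap. C3ar1 was at 0.132 and 0.0478 of that mean in the libraries labelled CD4creERafl/fl and at 0.596 and 0.108 in controls, with overlap. When all genes were scaled to the geometric mean of the macrophage markers and tested in limma, none of the 7 members passed (adjusted p 0.225 to 0.672), while 0.147% of tested genes were called higher and 62.1% lower. C1qa, C1qb, C1qc, Cfp and C5ar1 had log2 fold changes of 1.14, 0.59, 1.66, 1.26 and 0.78 on this scale, and C3 and C3ar1 had -1.22 and -1.46, against a median of -3.01 over all tested genes, of which 5.16% lay above 0. The SEs of the members were 1.279 to 1.295, except 0.984 for C5ar1. Most of these fold changes are thus no larger than their SE. Scaled instead to the T cell markers, all 7 rose in limma (adjusted p 0.00542 to 0.0105), as did 67.1% of tested genes, whose median log2 fold change was 1.92.

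**Figure D4:**
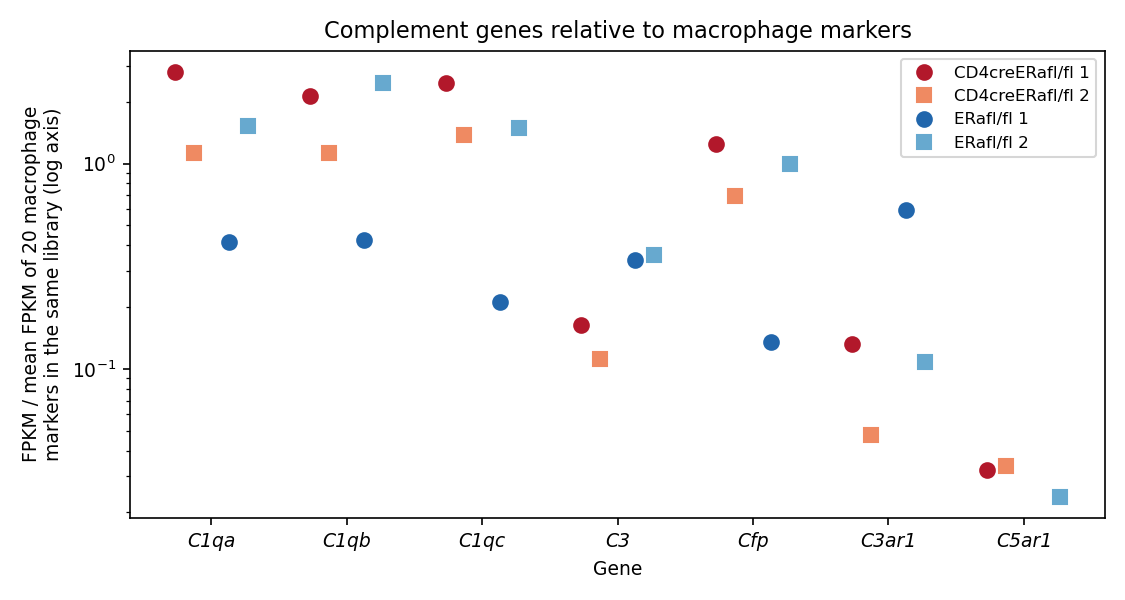
FPKM of each of the 7 genes divided by the mean FPKM of 20 macrophage markers in the same library (log axis), libraries labelled CD4creERafl/fl at left of each gene and controls (ERafl/fl) at right. For the C1q chains and Cfp control 2 lies near the libraries labelled CD4creERafl/fl and control 1 below them; C3 is lower in both libraries labelled CD4creERafl/fl than in both controls, and C5ar1 in control 1 is 0 and not drawn.

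Neutrophil markers, from another cell with complement receptors and stored properdin, were also higher, by a smaller median log2 fold change of 1.08. All 14 had a higher mean, as did 5982 of all 12896 tested genes, and 8 were higher without overlap, against 23.2% of tested genes. Their sum was 5890 and 7875 FPKM in the libraries labelled CD4creERafl/fl and 2122 and 4437 FPKM in controls, and their part in the C5ar1 and Cfp values was not tested. The most abundant, S100a9, had 2505 and 3662 FPKM in the libraries labelled CD4creERafl/fl, against 915 and 2032 FPKM in controls. S100a8 had 2176 and 2525 FPKM in the libraries labelled CD4creERafl/fl, against 607 and 1448 FPKM in controls. Ngp had 355 and 619 FPKM in the libraries labelled CD4creERafl/fl, against 130 and 287 FPKM in controls. The median log2 fold change was 2.79 for dendritic cell markers, with 7 of 11 higher and 1, Xcr1, lower without overlap (23.2% and 25.7% of tested genes). NK cell markers had a median of 3.43, with 6 of 7 higher and 1, Nkg7, lower without overlap, against the same shares of tested genes. That median is the value of Tyrobp. Tyrobp had 371 and 327 of the 441 and 486 FPKM that these markers summed to in the libraries labelled CD4creERafl/fl. Erythroid markers had a median of 1.68, with 1 of 11 higher and 0 lower without overlap. That is 9.09% higher, below the 23.2% of all tested genes. Of 7 B cell markers 2 were tested, with a median of 1.12 and 1 higher without overlap. Ly6g, Clec9a, Ncr1, Klrb1c, Klra8, Klre1 and Jchain had control means under 1 FPKM. They passed the filter for testing only through the libraries labelled CD4creERafl/fl, which fixed a higher mean for them in advance.

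The genes with the pattern most like C1q were found by the Euclidean distance of their log2(FPKM + 1) values over the 4 libraries, centred per gene, from the mean of the C1q chains. Among 5049 genes with a mean of at least 10 FPKM, the nearest were Basp1 (distance 0.30), Fcer1g (0.44), Sirpa (0.45), Apoe (0.51) and Cox6a2 (0.54). Fcer1g encodes the signalling chain of Fc receptors, Sirpa the inhibitory receptor for CD47, Apoe a lipid carrier of macrophages, and Basp1 a membrane-bound signalling protein. Basp1 had 297 and 150 FPKM in the libraries labelled CD4creERafl/fl, against 1.55 and 38.2 FPKM in controls. Fcer1g had 246 and 188 FPKM in the libraries labelled CD4creERafl/fl, against 2.18 and 54.9 FPKM in controls. Apoe had 646 and 463 FPKM in the libraries labelled CD4creERafl/fl, against 7.22 and 70.9 FPKM in controls. Sirpa is itself one of the 20 macrophage markers. Cox6a2, a subunit of muscle cytochrome c oxidase, had 780 and 503 FPKM in the libraries labelled CD4creERafl/fl, against 6.59 and 71.5 FPKM in controls. Its exons overlap Itgad, an integrin gene on the opposite strand, by 70 bases. Of the members, Cfp lay closer to the mean C1q profile (0.16) than any of these genes or any C1q chain by itself (0.37 to 0.53). C3 (2.97), C5ar1 (3.20) and C3ar1 (4.11) lay far from it on this scale. C5ar1 and C3ar1 have means under the 10 FPKM asked of the other genes, and the added 1 shrinks differences of low genes. With a pseudocount of 0.1 the log2 fold change was 4.215 for C5ar1, 1.81 for C3ar1 and 4.652 for C1qa.

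Of 52 other complement genes listed by role, 35 were among the table's symbols and 25 had a mean of at least 1 FPKM. None of the 25 passed at an adjusted p under 0.05 in limma. At an unadjusted p under 0.05 in limma 7 were higher and 0 lower, against 9.1% and 6.8% of all tested genes. Without overlap 17 were higher and 0 lower, against 23.2% and 25.7%. Among the 17, C2, C1ra, C4b and Cpn1 had control means of 0, 0.26, 0.67 and 0.42 FPKM. They reached the mean of 1 FPKM only through the libraries labelled CD4creERafl/fl, which fixed a higher mean for them in advance. With voom weights 3 of 16 rose in limma, against 1.97%. The median log2 fold change of the 25 was 1.22.

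Among recognition and early proteases of the classical and lectin pathways (6 tested), 5 were higher without overlap, the ficolins among them. Over all tested genes 23.2% were higher without overlap. Fcna, a macrophage lectin that starts the lectin pathway, had 99.6 and 132 FPKM in the libraries labelled CD4creERafl/fl. In controls Fcna was listed at 0 and had 12.7 FPKM. Fcna rose in the voom fit (adjusted p = 0.032 in limma) and also after scaling to macrophage markers (adjusted p = 0.0442 in limma). That scaling divides control 1 by 0.149, and 3 fragments of Fcna there, taken as the limit for a listed 0, would be 3.13 FPKM. The scaled call therefore depends on the 0 listed in control 1 and is uncertain. The exons of Fcna overlap the antisense gene Fcnaos by 90 bases. Fcnb, the ficolin of neutrophils and monocytes, had 13.4 and 15.5 FPKM in the libraries labelled CD4creERafl/fl, against 1.37 and 8.65 FPKM in controls (adjusted p = 0.335 in limma). C4b, a substrate of the C1 proteases, had 4.73 and 1.63 FPKM in the libraries labelled CD4creERafl/fl, against 0.52 and 0.82 FPKM in controls, and shares 5378 bases with C4a. The C4b values rest on about 13 and 5 fragments in the libraries labelled CD4creERafl/fl and 2 and 3 in controls. C2 had 3.76 and 3.38 FPKM in the libraries labelled CD4creERafl/fl and was listed at 0 in both controls, on about 5 fragments in each library where it was found. It shares up to 1334 bases with Gm20547 and Zbtb12. C1ra, a protease of the C1 complex with a near-identical copy C1rb, had 2.16 and 1.94 FPKM in the libraries labelled CD4creERafl/fl, against 0.52 and 0 FPKM in controls. The C1ra values rest on about 3 and 3 fragments in the libraries labelled CD4creERafl/fl and 1 and 0 in controls. C2 and C1ra were chosen after their values were seen. Masp2, a lectin pathway protease, had 99.9 and 76.3 FPKM in the libraries labelled CD4creERafl/fl and 118 and 73.8 FPKM in controls, but 1817 bases of its exons overlap Tardbp on the opposite strand.

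Of the alternative and terminal components 3 were tested. C6, which builds the membrane attack complex, had 17.4 and 15.6 FPKM in the libraries labelled CD4creERafl/fl, against 1.5 and 2.09 FPKM in controls. These values rest on 25 and 25 fragments in the libraries labelled CD4creERafl/fl and 3 and 4 in controls. The controls differed by 0.31 on the log2(FPKM + 1) scale for C6. Its log2 fold change was 2.65 ± 0.42 (SE), with an adjusted p of 0.12 in limma, and it rose in the voom fit (adjusted p = 0.0487 in limma). Cfb, the protease partner of C3b, had 22.3 and 17.5 FPKM in the libraries labelled CD4creERafl/fl, against 7.23 and 16.8 FPKM in controls. Its exons overlap the annotated gene Gm20547 by 2246 bases. C8g had 120 and 101 FPKM in the libraries labelled CD4creERafl/fl and 104 and 67.7 FPKM in controls, with overlap. Cfd, the protease that activates factor B, was above 0 in library 2 labelled CD4creERafl/fl alone, at 1.99 FPKM, and was not tested.

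Of the receptors for C1q and C3 fragments 11 were tested, with 9 higher and 2 lower on average. Itgax, the CD11c chain of complement receptor 4, had 48.9 and 56.9 FPKM in the libraries labelled CD4creERafl/fl, against 1.06 and 23.8 FPKM in controls (adjusted p = 0.304 in limma). Its partner chain Itgb2, which lymphocytes also make, had 83.3 and 101 FPKM in the libraries labelled CD4creERafl/fl and 63.4 and 85.8 FPKM in controls, with overlap. Lrp1, a scavenger receptor that has been described as a C1q receptor, had 10.3 and 15.4 FPKM in the libraries labelled CD4creERafl/fl, against 0.09 and 1.59 FPKM in controls. It rose in the voom fit (adjusted p = 0.0208 in limma) and was chosen after its values were seen. Calr, which encodes calreticulin, a chaperone of all cells that can bind C1q, had 419 and 259 FPKM in the libraries labelled CD4creERafl/fl and 198 and 246 FPKM in controls (adjusted p = 0.451 in limma). Vsig4, a C3b receptor of tissue-resident macrophages chosen after its values were seen, was listed at 0 in 3 libraries and had 1.26 FPKM, about 1 fragment, in library 2 labelled CD4creERafl/fl.

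Of 5 regulators of complement tested, 3 had a higher and 2 a lower mean. Cr1l, the rodent membrane inhibitor Crry, had 9.59 and 25.8 FPKM in the libraries labelled CD4creERafl/fl and 19.8 and 28.0 FPKM in controls (adjusted p = 0.65 in limma), with overlap. Cd55, which speeds the decay of the C3-cleaving enzymes, had 9.43 and 4.23 FPKM in the libraries labelled CD4creERafl/fl, against 0.56 and 2.96 FPKM in controls. Cpn1, a subunit of the carboxypeptidase that inactivates C3a and C5a, had 4.47 and 2.01 FPKM in the libraries labelled CD4creERafl/fl and 0 and 0.84 FPKM in controls. Of the 3 regulators tested with voom weights none passed in limma.

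**Figure D5:**
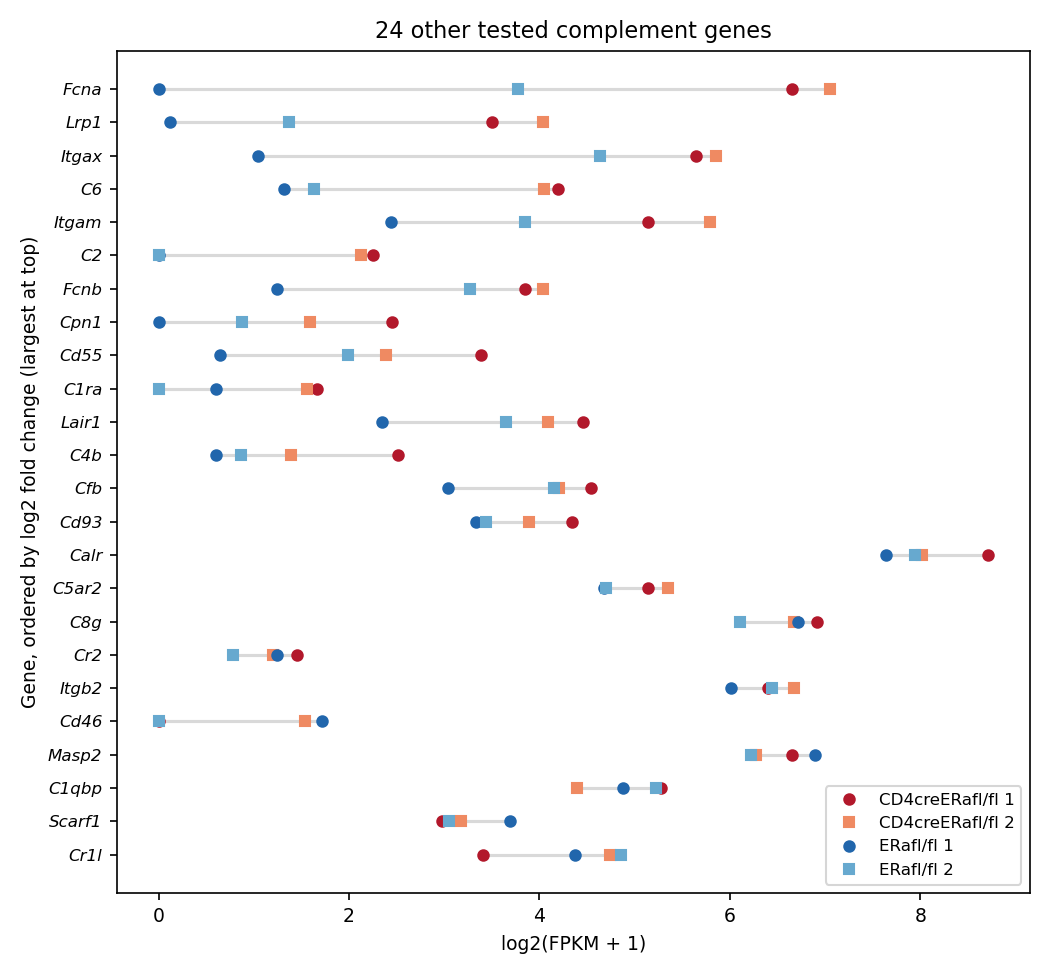
Log2(FPKM + 1) of 24 other complement genes tested, 1 row per gene with the largest log2 fold change at the top; red and orange points are the libraries labelled CD4creERafl/fl and dark and light blue points the controls (ERafl/fl). For 16 of the 24, Fcna, Lrp1 and C6 among them, the red and orange points lie above both blue points, as for 23.2% of all tested genes. For the others the groups overlap.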

How the data were processed

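RNA of sorted CD4 T cells was sequenced in 4 libraries, 2 per group, grouped by their titles. The FPKM values were deposited by the authors as 1 table. Per the submitters' processing notes, HISAT, Bowtie2 and RSEM were used with the build mm10, and settings and strand use are not given in the sources used here. A listed 0 can be a failed estimate.

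Here the whole table was tested with limma 3.58.1 (R 4.3.3) on log2(FPKM + 1) for the 12896 genes with a mean of at least 1 FPKM, with a group term alone, an empirical Bayes trend, two-sided tests and Benjamini-Hochberg adjustment. A fold change on this scale understates the change of low genes. For genes with 1 transcript over 800 bases (10348 genes, lengths from GENCODE M21), FPKM times length fell on multiples of 1 fragment. The best step gave each library's depth, with 75.91% to 77.15% of low values within 0.2 of a whole number. Fragments recovered so, rounded, were used for voom weights in limma (7549 genes with at least 10 in all). The limma procedure was tested on simulated data with known changes, where libraries of a group shared the same mean per gene. The controls here differed far more for the C1q chains, so the simulation does not show how limma handles such genes. Other alternatives were another pseudocount, filters, scalings, no trend, the replicate number as a block, and each library left out. The voom fits without 1 library were chosen after seeing the data.

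The members and lists (4 complement lists by role and markers of 7 cell types) were chosen with earlier results of these data known. Named were all members, Esr1, the 4 genes of highest mean in each complement list, the 3 of highest mean among macrophage, T cell and neutrophil markers, and the 5 nearest profiles without Gm or Rik names. One complement gene that this rule names is not reported here, though it stays in the counts over all genes and lists. Upstream sequence is from RefSeq. Protein sequences were not used here.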

Additional observations from a re-analysis of the deposited data

How the results depend on the processing

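All 7 genes were higher under every alternative run on them, except that C3 and C3ar1 turned to -1.22 and -1.46 when scaled to macrophage markers. Leaving aside the voom fits without 1 library, 0 members were called higher except with T cell scaling and voom weights. T cell scaling called 7 of 7 (67.1% of all tested genes) and voom weights 4 of 6 (1.97% of genes tested that way). With the same fits left aside, 0 other complement genes were called higher except with T cell scaling, voom weights and macrophage scaling. These called 23 of 25, 3 of 16 and 1 of 25, against 67.1%, 1.97% and 0.147% of all genes tested in each. Macrophage scaling also called 8 of 25 lower, against 62.1% of all tested genes. Over all genes limma called 2 higher and 5 lower. Using no filter, no trend, a pseudocount of 0.1 or the replicate block gave 0 and 0, and a mean of at least 5 FPKM gave 0 higher. Leaving out 1 library gave 0 and 0, T cell scaling 8652 and 42, macrophage scaling 19 and 8005, voom weights 149 and 53, and voom without library 1 or 2 labelled CD4creERafl/fl or control 1 or 2 gave 199, 214, 100 and 145 higher and 42, 49, 72 and 138 lower. At an unadjusted p under 0.05 the settings with 0 calls in both directions had 1234 to 2266 genes. Equal replicate numbers did not deviate together (r = -0.002 across genes), and the replicate block left every member on its side of the threshold. The C1q difference relative to macrophage markers ranged from -0.082 (without control 1) to 2.303 (without control 2), and was 0.418 against the median of the markers. Each C1q chain and Cfp rest on 1 or 2 fragments in control 1, although its estimated depth was the highest, so their fold changes are imprecise. The cause of these changes was not tested.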
